A study of Mus musculus with 10 samples.

Results

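The immediate early genes described here are Fos, Fosb, Jun, Junb, Egr1, Egr2, Atf3, Ier2, Nr4a1 and Dusp1, as measured in mouse abdominal aorta. All probe sets that the platform annotation ties to exactly 1 gene symbol among these were taken, which gave 12 probe sets for 10 genes, out of 45037 probe sets in the series and 34945 with 1 symbol. Jun and Egr2 had 2 probe sets each and the other genes had 1. Of the 12 probe sets, 9, for 8 genes, reached a signal of 100 on 4 arrays or more and were tested for a difference between genotypes. Fosb and both probe sets of Egr2 were dimmer than that, and their values are described without the test across all probe sets.

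The study asked how a chronic dermatitis changes gene expression in a distant artery. It compared 6 KCASP1Tg mice, in which human caspase-1 is expressed in keratinocytes under the keratin 14 promoter so that dermatitis arises spontaneously, with 4 WT littermates on the same C57BL/6 background. The animals were female and 16 weeks old, the tissue is labelled dechorionated abdominal aorta, and RNA of each mouse was hybridised to 1 GeneChip Mouse Genome 430 2.0 array. The mice were killed with CO2 or pentobarbital, and which mouse had which is not given in the sources used here. As the transgene acts in the skin, no aortic cell type is targeted by the model.

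Immediate early genes are transcribed within minutes of a stimulus, without the need for new protein synthesis, because the factors that switch them on (SRF with its ternary complex partners, and CREB) already sit at their promoters and are activated by kinases. Most encode transcription factors: Fos and Jun proteins pair to form AP-1, and the EGR and NR4A families carry the first wave on to later genes, while Dusp1 encodes a phosphatase that turns the MAP kinases off again. Their transcripts are short-lived, and in arteries they are known to be induced by stretch, injury, growth factors and cytokines, and also by the handling of tissue after death.

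The promoters of these genes are where those signals arrive, and the 4 windows below show the elements that a search found. Each is the run of 250 bases just before the annotated start (RefSeq, GRCm38.p6), 5′ to 3′ on the strand of the gene. Capitals mark the cyclic AMP response element TGACGTCA or its core TGACG, read on either strand, and in Egr2 the CArG box to which SRF binds. Fos lies at chr12:85473640-85473889 (+), Egr2 at chr10:67537619-67537868 (+, 1 of 5 annotated windows), Nr4a1 at chr15:101266596-101266845 (+) and Dusp1 at chr17:26508473-26508722 (-).
Fos: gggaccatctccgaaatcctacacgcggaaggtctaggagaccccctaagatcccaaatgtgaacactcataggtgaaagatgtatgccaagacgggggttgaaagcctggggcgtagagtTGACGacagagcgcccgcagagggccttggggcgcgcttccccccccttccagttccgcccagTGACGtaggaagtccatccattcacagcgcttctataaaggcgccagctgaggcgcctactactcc
Egr2: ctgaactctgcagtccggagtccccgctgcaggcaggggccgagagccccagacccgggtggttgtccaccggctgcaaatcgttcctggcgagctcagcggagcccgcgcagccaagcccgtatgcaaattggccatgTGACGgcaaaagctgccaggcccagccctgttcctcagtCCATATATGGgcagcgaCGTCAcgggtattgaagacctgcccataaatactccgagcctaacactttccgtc
Nr4a1: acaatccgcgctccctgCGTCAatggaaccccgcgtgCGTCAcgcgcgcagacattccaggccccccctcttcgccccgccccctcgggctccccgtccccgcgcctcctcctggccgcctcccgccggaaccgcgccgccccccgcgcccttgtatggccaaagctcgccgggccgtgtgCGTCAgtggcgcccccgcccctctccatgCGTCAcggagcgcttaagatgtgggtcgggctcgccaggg
Dusp1: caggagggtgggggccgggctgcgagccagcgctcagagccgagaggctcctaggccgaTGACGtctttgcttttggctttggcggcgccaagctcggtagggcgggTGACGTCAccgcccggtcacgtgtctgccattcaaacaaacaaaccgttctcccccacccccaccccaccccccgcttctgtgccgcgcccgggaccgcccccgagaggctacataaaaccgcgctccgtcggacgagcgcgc

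Windows of 8 of the 10 genes were searched. The windows of Egr1 and Ier2 were not analysed here, so that the counts below say nothing about these genes. The core was found in 7 of the 8, all but Jun, and in 17.8% of 32851 promoter windows of the same length. Fos held it at -129 and -66 (the first base of the match, with -1 just before the start), Egr2 at -111 and -55, and Nr4a1 at -233, -213, -69 and -40. Dusp1 was the gene with the complete element, at -143, found in 1.55% of all windows, and a further core lay at -191. The CArG box was found in Egr2, at -72, and in 1.47% of all windows. Of the 5 windows of Egr2, the 1 with the most matches to the complete element, core, CArG box and AP-1 site was taken. Its matches, also its place among the 7 of 8 with the core, are therefore not a fair comparison with the shares of all windows. The EGR site (GCGGGGGCG or GCGTGGGCG, either strand) was found in Fosb and Nr4a1 and in 3.06% of all windows. The AP-1 site TGACTCA (or TGAGTCA, its other strand) and the NR4A element AAAGGTCA were found in 0 of the 8 windows, and in 4.46% and 1.34% of all. A match describes the letters of a window and not a bound site, and elements farther from the start were not searched.

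None of the immediate early genes passed the test for a difference between KCASP1Tg and WT aorta. Transcripts of Fos, Egr1 and Nr4a1 varied several-fold between mice of the same genotype, and 1 mouse, KCASP1Tg 6, had the highest Fos, Fosb, Egr1 and Ier2 of all 10 mice. Of the 8 genes tested, 0 were called at an adjusted p under 0.05 by limma, against 0.0686% of all 26242 probe sets tested (18 probe sets, all higher in KCASP1Tg aorta). At an unadjusted p under 0.05 there was 1 gene, Atf3, which was lower in KCASP1Tg aorta, against 7.94% of all probe sets, of which 3.42% were lower and 4.52% higher. For 0 of the 8 were the groups free of overlap, against 2.93% of all probe sets. The exact two-sided Mann-Whitney test, whose smallest p for 4 mice against 6 is 0.00952, gave 1 gene, again Atf3, at an unadjusted p under 0.05, against 7.65% of all probe sets. After adjustment it called 0 of the 26242 probe sets (0.0%), so that its count of 0 among these genes says nothing about them. The log2 fold change (KCASP1Tg over WT) was positive for 5 of the 8 genes with a median of 0.14, against 0.00 over all probe sets tested. In a whole artery, fewer cells of a type and less RNA per cell cannot be told apart. The arrays give 1 signal a probe set on a linear scale, already scaled between arrays, and signals are compared between mice and not between genes.

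**Figure D1:**
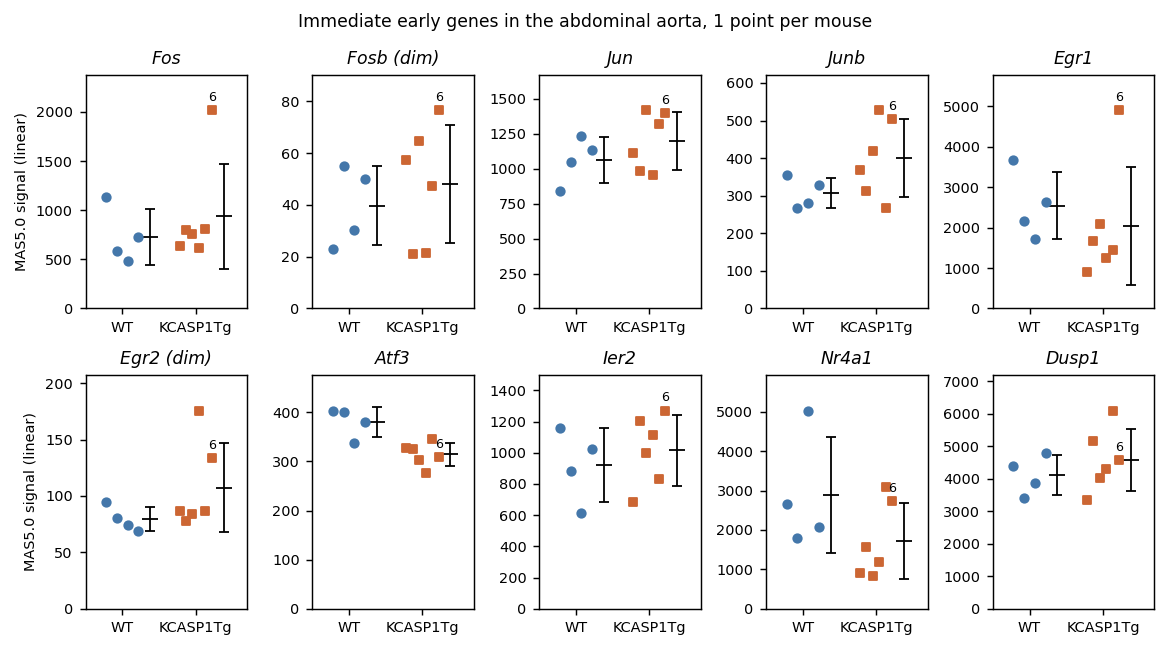
MAS5.0 signal (linear, from 0) of each immediate early gene by mouse, with circles for WT (n = 4), squares for KCASP1Tg (n = 6), bars for mean and SD, and 6 marking KCASP1Tg 6; the probe sets marked dim had not passed the signal filter. The groups overlap for each of the 10 genes, and KCASP1Tg 6 stands at 2017 for Fos against 611 to 804 in the other KCASP1Tg mice.

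Among the AP-1 subunits, Fos, the prototype of the family, had signals of 1129, 586, 482 and 725 in WT 1 to WT 4. KCASP1Tg 1 to KCASP1Tg 6 had 636, 799, 754, 611, 804 and 2017. WT 1 and KCASP1Tg 6 thus lay above all others, and the other KCASP1Tg mice fell within the range of the WT mice. The mean signal was 731 ± 284 (SD, n = 4) in WT and 937 ± 536 (SD, n = 6) in KCASP1Tg aorta. On the log2 scale KCASP1Tg was higher by 0.29 (standard error 0.35, 95% interval -0.47 to 1.06, adjusted p = 0.919 by limma). Without KCASP1Tg 6 it was 0.05, without WT 3 it was 0.12 and without WT 1 it was 0.53.

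Fosb, a Fos relative whose truncated form is stable, was dim in every mouse. Its signal ran from 23.1 to 54.8 in WT and from 21.0 to 76.5, again in KCASP1Tg 6, with a median of 52.2, in KCASP1Tg aorta. No array reached 100, and the log2 fold change of 0.19 had a 95% interval from -0.80 to 1.19.

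Jun, the partner that lets Fos bind DNA, was measured by 2 probe sets that differed in direction. On the brighter one, WT 1 to WT 4 had 843, 1045, 1232 and 1132, and the KCASP1Tg mice had 955 at the lowest, 1218 at the median and 1419 at the highest. Here 3 of the 6 KCASP1Tg mice were above every WT mouse and the log2 fold change was 0.17 (standard error 0.16, 95% interval -0.19 to 0.52), or 0.06 without WT 1. On the other, WT 1 to WT 4 had 641, 704, 764 and 825, and 4 of the 6 KCASP1Tg mice, from 535 to 609.6, were below every WT mouse. Its log2 fold change was -0.18 (standard error 0.14, 95% interval -0.49 to 0.13), so that neither direction holds over both probe sets of the gene. The adjusted p of limma was 0.887 and 0.828.

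Junb, a Jun relative that can restrain Jun, had signals of 355, 266, 281 and 328 in WT 1 to WT 4. The KCASP1Tg mice, in order of number, had 368, 312, 420, 527, 268.5 and 505. For this gene 4 of the 6 KCASP1Tg mice lay above every WT mouse, while KCASP1Tg 2 and KCASP1Tg 5 lay among them. This gave a log2 fold change of 0.35 (standard error 0.20, 95% interval -0.10 to 0.79, adjusted p = 0.734 by limma). It was 0.14 without KCASP1Tg 4 and KCASP1Tg 6, the 2 mice with the highest Junb.

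Atf3, a repressor of the CREB/ATF family that is induced by cell stress, was the gene with the smallest spread between mice and the smallest p. Its signals were 404, 400, 337 and 379 in WT 1 to WT 4. Those of KCASP1Tg 1 to KCASP1Tg 6 were 326, 324.5, 303, 277, 345 and 309. Of the KCASP1Tg mice 5 lay below every WT mouse, and KCASP1Tg 5 lay above WT 3 alone. The mean was 380 ± 30.8 (SD, n = 4) in WT and 314 ± 23.4 (SD, n = 6) in KCASP1Tg aorta. The log2 fold change was -0.27 (standard error 0.10, 95% interval -0.50 to -0.05), which gave a limma p of 0.0219 and an adjusted p of 0.516. The exact two-sided Mann-Whitney p was 0.019 before adjustment and 0.397 after it.

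Egr1, a zinc finger factor that shear stress and injury induce in arterial cells, had the second widest spread of the genes tested. Its signals were 3659, 2172, 1711 and 2630 in WT 1 to WT 4. In KCASP1Tg 1 to KCASP1Tg 6 they were 900.5, 1669, 2097, 1239, 1442 and 4902. So 4 of the 6 KCASP1Tg mice lay below every WT mouse, KCASP1Tg 3 lay among them and KCASP1Tg 6 lay above them all. As a log2 fold change the difference was -0.49 (standard error 0.42, 95% interval -1.41 to 0.43, adjusted p = 0.856 by limma). Without KCASP1Tg 6 it was -0.79 with an adjusted p of 0.391 (limma), and without WT 1 or without KCASP1Tg 1 it was -0.30. The direction of Egr1 was thus opposite to that of Fos over all mice.

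Egr2, its close relative and the gene whose window holds the CArG box printed above, was near the filter. On the brighter of its 2 probe sets WT 1 to WT 4 had 94.4, 80.6, 74.4 and 69.0, and the KCASP1Tg mice had 77.6 at the lowest, 86.4 at the median and 176 at the highest. KCASP1Tg 4 (176) and KCASP1Tg 6 (134) reached 100, and the other mice did not. The log2 fold change was 0.37 (95% interval -0.19 to 0.93) on this probe set and 0.13 (95% interval -0.51 to 0.77) on the other, on which KCASP1Tg 4 (87.4) and KCASP1Tg 6 (67.4) were again the highest.

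**Figure D2:**
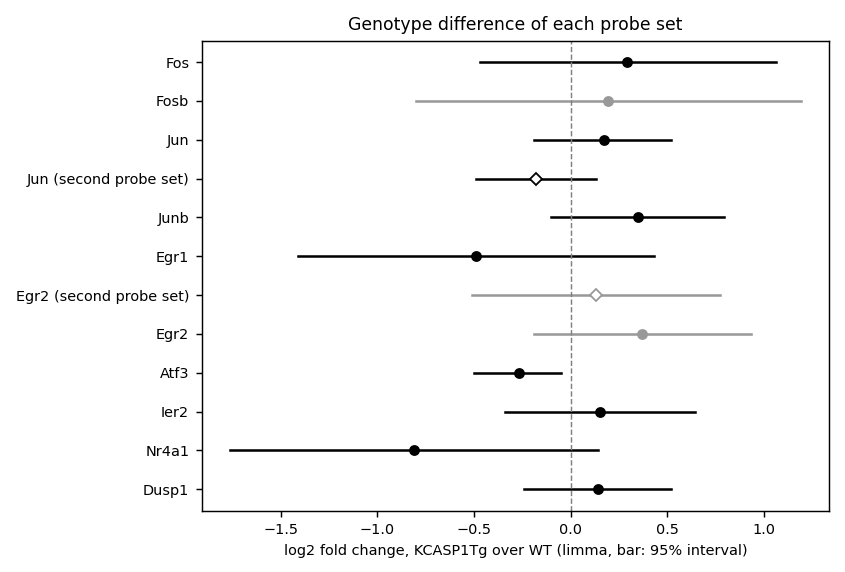
Log2 fold change (KCASP1Tg over WT, all 10 mice) of each probe set with its 95% interval from limma. Grey marks probe sets below the signal filter and open diamonds the dimmer probe set of a gene with 2; every interval but that of Atf3 (-0.50 to -0.05) spans 0, and those of Egr1, Nr4a1 and Fosb are the widest.

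Nr4a1, an orphan nuclear receptor that limits inflammation in macrophages and smooth muscle, had the largest difference in mean log2 signal. Its signals were 2649, 1798, 5029 and 2067 in WT 1 to WT 4. KCASP1Tg 1 to KCASP1Tg 6 had 915, 1573, 829, 1193, 3097 and 2722. Of the KCASP1Tg mice 4 lay below every WT mouse, whereas KCASP1Tg 5 and KCASP1Tg 6 lay above all WT mice but WT 3. The mean was 2886 ± 1472 (SD, n = 4) in WT and 1721 ± 963 (SD, n = 6) in KCASP1Tg aorta. The log2 fold change was -0.81 (standard error 0.43, 95% interval -1.76 to 0.14, adjusted p = 0.700 by limma), or -0.50 without WT 3. That mouse had the lowest Fos and Ier2 and the highest Nr4a1. It was also the highest of all 10 mice for both other receptors of the family. Nr4a2 had a signal of 1783 in WT 3 against 206 to 796 in the other mice, and Nr4a3, named after its values were seen, had 925 against 104 to 352.5.

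Ier2, a small nuclear protein of the first wave, had signals of 1162, 883.5, 614 and 1026 in WT 1 to WT 4. The KCASP1Tg mice, in order of number, had 682, 1202, 998, 1114, 830 and 1271. The groups overlapped over most of their range, and the log2 fold change was 0.15 (standard error 0.22, 95% interval -0.34 to 0.64, adjusted p = 0.950 by limma). Without WT 3 it was -0.03, and leaving out any other single mouse gave 0.08 (KCASP1Tg 6) to 0.27 (WT 1).

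Dusp1, the phosphatase that inactivates p38 and JNK and a known glucocorticoid target, had signals of 4377, 3402, 3880 and 4795 in WT 1 to WT 4. Those of KCASP1Tg 1 to KCASP1Tg 6 were 3348, 5169, 4018, 4284, 6094 and 4586. The highest 2 values and the lowest were all from KCASP1Tg mice, with the WT mice between them. Its log2 fold change was 0.14 (standard error 0.17, 95% interval -0.24 to 0.52, adjusted p = 0.925 by limma). It was 0.05 without WT 2 or without KCASP1Tg 5, 0.22 without WT 4 and 0.23 without KCASP1Tg 1.

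With every mouse included, the genes fell into a variable and a steady group by their spread between mice of one genotype. The SD of the log2 signal within genotype was 0.75 for Nr4a1, 0.72 for Egr1 and 0.60 for Fos, above 92.2%, 91.5% and 87.3% of all probe sets tested. It was 0.37 for Ier2, 0.33 for Junb, 0.27 for Dusp1 and 0.25 for Jun, near the median of 0.29 over all probe sets. Atf3, at 0.11, lay above 4.96% of them. KCASP1Tg 6 stood apart in 2 of the variable genes. Its log2 signal for Fos was 10.98, where KCASP1Tg 1 to KCASP1Tg 5 ran from 9.25 to 9.65 and the WT mice from 8.91 to 10.14. For Egr1 it was 12.26, where KCASP1Tg 1 to KCASP1Tg 5 ran from 9.81 to 11.03. Fos in KCASP1Tg 1 to KCASP1Tg 5 was thus narrower in range than Ier2 of the steady group, which ran from 9.41 to 10.23 there. In the WT mice Fos was wider in range than Ier2 (9.26 to 10.18). The place of Fos in the variable group thus leans on KCASP1Tg 6, though its SD without that mouse was not computed. How far that of Egr1 does was not tested. In Egr1 and Nr4a1 the wider 95% interval left room for a decrease to 0.376 and 0.295 of the WT level. For the brighter probe set of Jun and for Dusp1 the lower end was 0.878 and 0.848. The upper end was 1.345-fold for Egr1 and 1.104-fold for Nr4a1, below the 1.44-fold of Jun and Dusp1.

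By mouse, KCASP1Tg 6 was above the mean of all mice for 9 of the 10 genes, with a median deviation of 0.52 on the log2 scale. It was the highest mouse for 4 of the 10 genes, among them the dim Fosb, and for 3 of the 8 tested, against 14.5% of all probe sets tested. KCASP1Tg 4 was the highest for Junb and Egr2 and the lowest for Atf3, and it was the highest for 23.2% of all probe sets tested. WT 1, with the highest Atf3 and the second highest Fos and Egr1, was above the mean for 8 of the 10 genes. KCASP1Tg 1 had the lowest Egr1 and Dusp1 and was above the mean for 2.

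**Figure D3:**
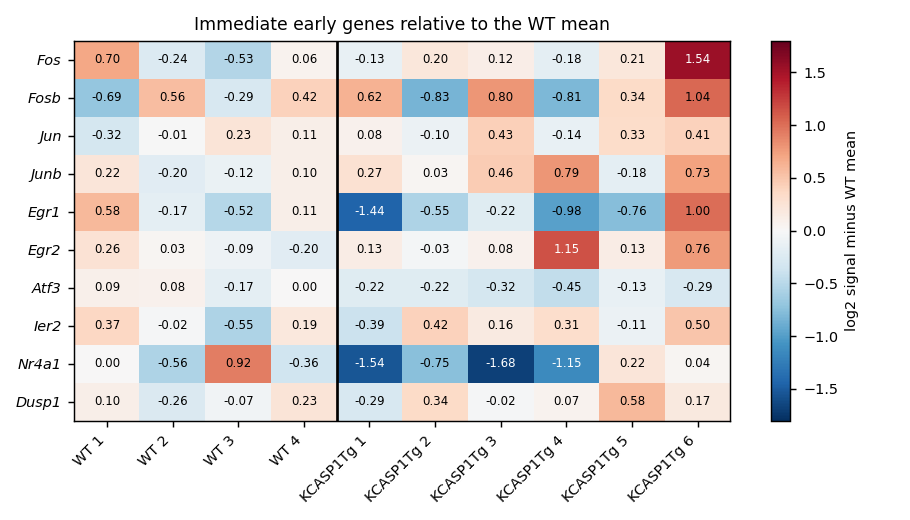
Log2 signal of each immediate early gene (rows) in each mouse (columns, WT left of the line) minus the WT mean, with the value in each cell and colour from blue (lower) to red (higher). KCASP1Tg 6 is at 1.54 for Fos, and Nr4a1 runs from -1.68 in KCASP1Tg 3 to 0.92 in WT 3.

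Transcripts of other tissues moved with some of these mice. The 6 genes of the neuron and sympathetic ganglion list (Th, Dbh, Snap25, Prph, Stmn2 and Chga) were all highest in KCASP1Tg 6, with a summed signal of 67260 there, 8540 to 54800 in WT mice and 5715 to 48060 in the other KCASP1Tg mice. WT 2 (54800) and WT 3 (52290), with the next highest sums, had the lowest Fos signals of all mice. The relation of this sum to Fos over all mice was not tested. The summed signal of 7 arterial smooth muscle genes was also highest in KCASP1Tg 6 (89860) and lowest in KCASP1Tg 4 (33250), against 76760 to 87610 in WT mice. In KCASP1Tg 4 the 10 measured T and B lymphocyte genes summed to 16450, against at most 2005 in the other mice. The 6 adrenal cortex genes summed to 14020 in KCASP1Tg 2 and 3798 in WT 3, the mouse with the highest Nr4a1, against 458 to 1495 elsewhere. Liver transcripts reached 170400 in WT 1 and 82480 in WT 3, against 20810 to 38730 elsewhere. No smooth muscle or endothelial gene listed was below 100 on every array. The same held for the liver and heart muscle lists, so that this does not tell the labelled tissue from others, nor describe single mice. The summed signal of 7 fibroblast genes was 57950 to 63790 in WT and 32390 to 62530 in KCASP1Tg mice, lowest in KCASP1Tg 4. The 3′ to 5′ signal ratio of the array's Actb control, a measure of RNA integrity, was 1.48 in KCASP1Tg 6 and ran from 1.26 to 1.51 over all mice. The part of these transcripts in the values of KCASP1Tg 2, KCASP1Tg 4, KCASP1Tg 6, WT 1 and WT 3 was not tested.

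Fos and Egr1 varied together within genotype by Pearson r, whereas over the 10 mice without centring their relation did not pass after adjustment. Of 9 relations with Fos computed over the 10 mice, that of Egr1 was the closest by Pearson r, at 0.75, though not by Spearman rho, at 0.43 (permutation p = 0.0113 for r and 0.217 for rho). Adjusted over the 9 relations these were 0.102 and 0.490. With each gene centred on its genotype mean, r was 0.93 and rho 0.84, with an exact p within genotype of 0.00081 for r and 0.0059 for rho (17280 orders of the mice), or 0.00729 and 0.0531 after adjustment. Without KCASP1Tg 6 and WT 1, the mice farthest from the median of the centred Fos values, r was 0.74, and without KCASP1Tg 6 and WT 3, the farthest on the values as they are, the uncentred r was 0.62 (permutation p = 0.0964, adjusted 0.566). Without KCASP1Tg 6 alone, the highest mouse for both genes, the uncentred r was 0.53. The 4 WT mice had the same order for Fos, Egr1 and Ier2, with WT 1 first, then WT 4, WT 2 and WT 3.

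Ier2 came second, with r = 0.68 and rho = 0.66 (permutation p = 0.0263 and 0.044, adjusted 0.118 and 0.198). Dusp1 had r = 0.37 and rho = 0.66 (permutation p = 0.298 and 0.044, adjusted 0.536 and 0.198). For the other genes r was 0.46 (Junb), 0.36 (Egr2), 0.28 (Fosb), 0.18 (Jun), 0.15 (Nr4a1) and -0.04 (Atf3), with a permutation p of 0.175 or more. With every mouse included, Nr4a1 was thus as variable as Fos and Egr1 but had another order of mice, led by WT 3.

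**Figure D4:**
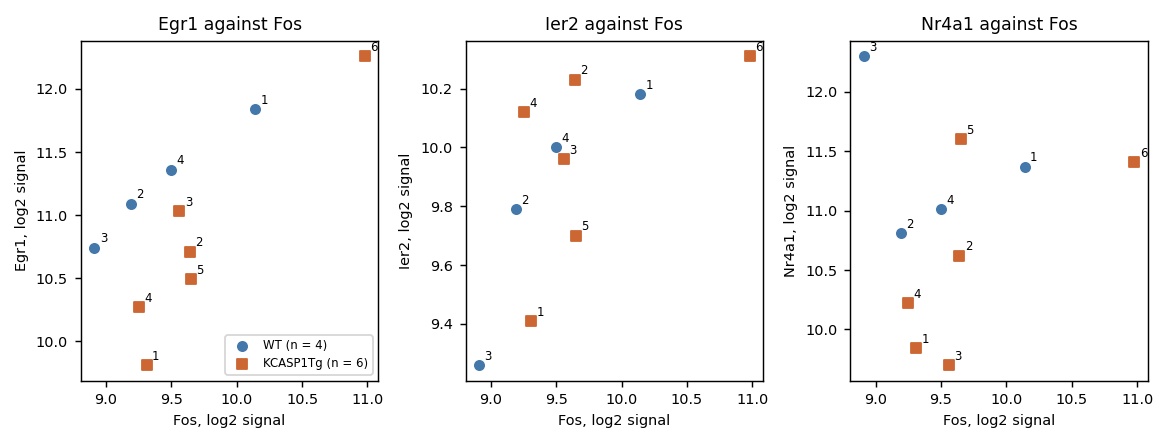
Log2 signal of Egr1, Ier2 and Nr4a1 (y axes) against that of Fos (x axes) in each WT mouse (circles, n = 4) and KCASP1Tg mouse (squares, n = 6), numbered by mouse. Egr1 runs with Fos within each genotype (r = 0.93 after centring), with the WT mice above the KCASP1Tg mice of like Fos, while WT 3 has the lowest Fos and the highest Nr4a1.

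The genes around them in the pathway were read from lists, and 0 genes of any of the 7 lists passed the adjusted test. These lists were chosen with earlier results of these data known, so that their counts and medians are descriptions and not tests. For single genes of the lists, every KCASP1Tg mouse lay above every WT mouse, which holds for 1.98% of all probe sets tested, and the reverse for 0.949%. Of the other AP-1 and CREB/ATF genes 14 of 16 were tested, 10 had a positive log2 fold change and the median was 0.09. Maff, a small Maf protein, was the 1 gene without overlap, with 131 to 183.5 in WT and 211 to 307 in KCASP1Tg aorta and a log2 fold change of 0.78 (adjusted p = 0.111 by limma). Atf4, the factor of the integrated stress response, was at 0.31, Jdp2, which dimerises with Jun, at 0.27, and Batf, an AP-1 factor of lymphocytes, at 0.80 (adjusted p 0.559 to 0.738). Batf had 489 in KCASP1Tg 4, the mouse with the most lymphocyte transcripts, against 75.7 to 173 in the other KCASP1Tg mice, and its value was 0.44 without that mouse.

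Of the other EGR, NR4A and KLF genes 10 of 11 were tested and 5 were positive, with a median of 0.00. Those with the smallest p were lower in KCASP1Tg aorta: Klf10, a growth-arrest factor induced by TGF-β, at -0.49 (adjusted p = 0.443 by limma) and Nr4a2 at -1.09 (adjusted p = 0.559), or -0.64 without WT 3. Klf9, a glucocorticoid-responsive factor, was at 0.24 and Klf6 at 0.18, or 0.10 without WT 1 (adjusted p of 0.780 and 0.783).

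Of the 31 other rapid response genes 29 were tested and 23 had a positive log2 fold change, against 49.6% of all probe sets tested, with a median of 0.24. At an unadjusted limma p under 0.05, 4 of them were higher and 2 lower, against 4.52% and 3.42% of all probe sets tested. Cebpd, an acute phase transcription factor, had 703 to 1184 in WT and 1238 to 3166 in KCASP1Tg aorta, a log2 fold change of 1.08 (adjusted p = 0.233 by limma). Csrnp1, a nuclear protein induced by axin, was also without overlap, at 0.78 (adjusted p = 0.426). Zfp36, which hastens the decay of cytokine mRNA, was at 0.67 (adjusted p = 0.474), and Pim1, a kinase downstream of STAT factors, was at -0.76 (adjusted p = 0.440).

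Rapid inflammatory response genes had the highest median of the 7 lists, 0.64, with 7 of 8 tested positive and 4 without overlap between the genotypes. Among them Socs3, a feedback inhibitor of cytokine receptors, had 155 to 269 in WT and 286 to 804 in KCASP1Tg aorta (log2 fold change 1.11, adjusted p = 0.303 by limma). Nfkbiz, a nuclear IκB protein needed for IL-17 responses, had 433.5 to 557 and 624 to 948 (0.66, adjusted p = 0.126). Icam1, an adhesion molecule for leukocytes, was at 0.63, or 0.41 without KCASP1Tg 4, and Nfkbia, the IκB that holds NF-κB in the cytoplasm, at 0.56 (adjusted p of 0.592 and 0.461). Both Icam1 (1845) and Tnfaip3 (1391, named after its values were seen) were highest in KCASP1Tg 4. The monocyte and macrophage markers went in the same direction: all 8 were positive, with a median of 0.62. For 3 of them every KCASP1Tg mouse lay above every WT mouse, against 1.98% of all probe sets tested. Their summed signal was 10150 to 15000 in WT and 13950 to 39890 in KCASP1Tg mice, highest in KCASP1Tg 4. All 8 tested neutrophil genes were positive as well, with a median of 3.6 and 6 without overlap. The part of either cell type in the values of the list was not tested, nor was the relation of the lists over the mice. The other 6 genes of the list, Ptgs2, Il6, Cxcl2, Ccl7, Tnf and Lif, were below the filter.

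Of the MAP kinase phosphatases and Sprouty genes, the family of Dusp1 and its fellow brakes on the kinases, 13 of 14 were tested, with 6 positive and a median of -0.01. Spry1 was without overlap, with 474.5 to 586 in WT and 626 to 738.5 in KCASP1Tg aorta (log2 fold change 0.35, adjusted p = 0.357 by limma), whereas Dusp4, a nuclear phosphatase, was at -0.71 (adjusted p = 0.531), Dusp6, which acts on ERK, at -0.33 and Dusp10 at -0.32, or -0.17 without WT 3. The upstream kinases, SRF and its partners, 18 of 23 tested, had 12 positive log2 fold changes, a median of 0.07 and 0 genes with an unadjusted p under 0.05 in limma, against 7.94% of all probe sets. The smallest p were those of Mapk14 (p38, 0.26), the SRF coactivator Mrtfa (0.34), the p38 kinase Map2k3 (0.15) and the SRF partner Elk1 (-0.26), with an adjusted p from 0.680 to 0.914. Single mice moved each of them: Mapk14 was at 0.16 without WT 3, Mrtfa at 0.15 without KCASP1Tg 4, Map2k3 between 0.09 (without WT 2) and 0.24 (without KCASP1Tg 4), and Elk1 between -0.40 (without KCASP1Tg 5) and -0.05 (without KCASP1Tg 1). Of 14 AP-1 and EGR target genes 10 were tested, 6 were positive and the median was 0.07, with Hmox1, the heme-degrading enzyme, at 1.13 (adjusted p = 0.559), the matrix protease Mmp3 at 0.68, Tgfb1 at 0.38, or 0.20 without KCASP1Tg 4, and Pdgfa at -0.25.

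**Figure D5:**
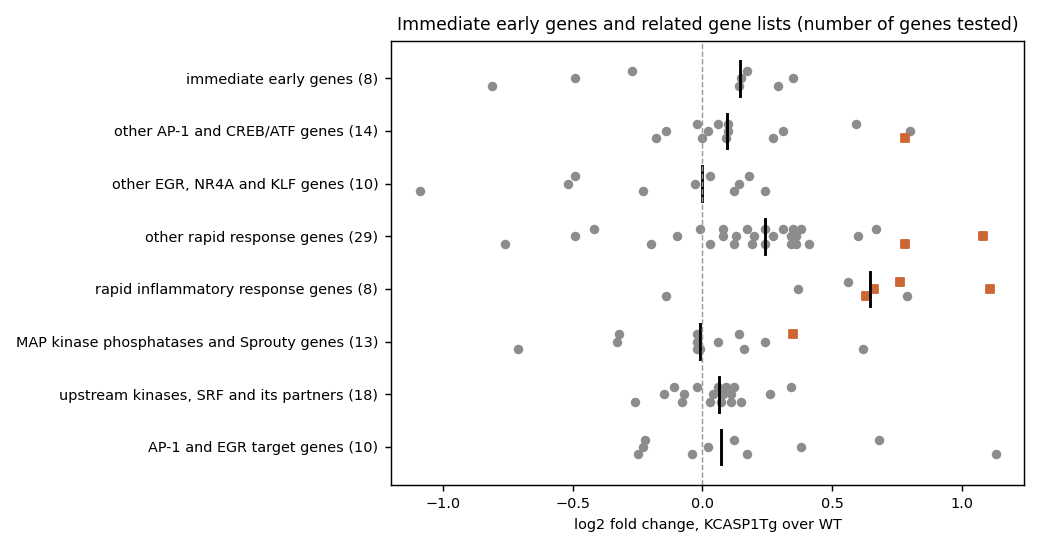
Log2 fold change (KCASP1Tg over WT) of each tested gene of the immediate early genes and of the 7 related lists, with the number tested in parentheses and a black bar at the median. Orange squares are genes for which every KCASP1Tg mouse was above every WT mouse: there are 0 among the immediate early genes and 4 among the 8 rapid inflammatory response genes.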

How the data were processed

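Abdominal aorta RNA of 4 WT and 6 KCASP1Tg mice, separate animals with 1 array each, was measured. Each probe set was given an intensity by the authors with MAS5.0, corrected for background and mismatch probes, and arrays were brought to a common trimmed mean of 500. These intensities were deposited unlogged. Array medians lay between 128.4 and 142.3 (WT) and between 128.3 and 155.7 (KCASP1Tg), and arrays correlated at 0.839 to 0.972. Depth does not apply, and the number of arrays limits the precision. The methods give n = 8 mice for these arrays, and all 10 arrays were used.

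From the deposited intensities, log2 values were taken after raising signals under 1 to 1, as the methods of the authors do. The 64 control probe sets were not used. Of the remaining 45037, 34945 had 1 gene symbol in the platform annotation, 932 had several and 9160 had none, and 34754 were matched to RefSeq by gene identifier. The 26242 probe sets that reached 100 on 4 arrays or more were tested with limma 3.58.1 in R 4.3.3, with genotype in the model and Benjamini-Hochberg adjustment over all of them, beside the exact two-sided Mann-Whitney test that the methods name for 2 groups. Genes with more than 1 probe set are represented by the brightest over all arrays. Correlations with Fos used 100000 permutations, or within genotype all orders. Figures were drawn with matplotlib 3.10.9 (Python 3.11.15).

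All 10 genes are named, together with up to 4 genes with the smallest limma p of each pathway or handling list, any listed gene that passed, and the 5 genes most like the mean of the 10. The genes and lists were chosen with earlier results of these data known. In simulated data for KCASP1Tg against WT over 26242 probe sets, 14%, 66%, 90% and 98% of probe sets changed by 0.5, 1, 2 and 4 on the log2 scale were recovered, and 2 of 136 calls were false.

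Alternatives were a floor of 16, a pseudocount of 50, no filter or a filter at 200, quantile normalization, median centring, array weights, an intensity trend, the Mann-Whitney test, a block for the replicate number, single arrays left out, WT 4 and KCASP1Tg 3 left out, probe sets averaged by gene and an adjusted p under 0.01. Leaving out KCASP1Tg 4 and 6, arrays with skeletal muscle transcripts (WT 1 and KCASP1Tg 4) or with heart muscle transcripts (WT 4, KCASP1Tg 1 and 2) was added after seeing the data, as was leaving out single arrays for the listed genes.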

Additional observations from a re-analysis of the deposited data

Results flagged for a closer look

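The Fos signal of KCASP1Tg 6 was far from those of the other KCASP1Tg mice. It was 2017 against 611 to 804, and on the log2 scale its gap to the nearest mouse was 0.77 of the range of the group, above the 95% limit of Dixon's test for 6 samples. It was the 1 such value among 24 groups of mice (12 probe sets in both genotypes), and chance gives about 1 in 20.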

How the results depend on the processing

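Under each alternative 0 of the immediate early genes were called. The calls over all probe sets ran from 0 (replicate block, and the exact Mann-Whitney test, which can therefore say nothing about these genes) over 18 (as reported) to 267 (array weights). The median log2 fold change of the genes tested ran from 0.02 to 0.28, and from 0.04 to 0.21 with single mice left out. The direction turned for Jun with the mean of its probe sets (-0.01) and for Ier2 without WT 3 (-0.03, and up to 0.27 with other single mice left out). Without the 2 arrays farthest from the median of Fos, the correlation with Fos turned for Fosb (-0.38), Jun (-0.26), Junb (-0.13), Egr2 (-0.21) and Atf3 (0.37), and for Atf3 also within genotype (0.30), where that of Egr1 (0.93) passed the threshold; the cause was not tested. Fos ran from 0.00 (replicate block) to 0.63, the latter without WT 1 and KCASP1Tg 4, an alternative chosen after seeing the data, Egr1 from -0.80 to -0.20, Nr4a1 from -1.28 to -0.50, Junb from 0.14 to 0.48 and Atf3 from -0.33 to -0.19, with a lowest adjusted p of 0.312 for Atf3 (limma with array weights).

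No sign was seen that the replicate numbers pair the mice: deviations of equally numbered mice correlated at -0.435 to 0.108, and 0 of 4 WT mice were closest to their own number. Such a check cannot exclude a pairing, as transcripts of other tissues also differ between the mice. With the number as a replicate block the median was 0.02, Fos was at 0.00, Egr1 at -0.80 and Nr4a1 at -1.28, and 0 genes were called. Numbers 5 and 6 occur in KCASP1Tg mice only, so that KCASP1Tg 5 and KCASP1Tg 6 do not bear on the fold changes of this fit. Fosb and Egr2 are at or below the dim end of the signals, so that their fold changes rest on weak signals.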

Other observations

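Genes that report on the state of the animal or the handling of tissue were read beside the immediate early genes. The log2 fold change was above 0 for all 10 glucocorticoid response genes (median 0.86), and 9 of them had an unadjusted limma p under 0.05, against 4.52% of all probe sets higher in KCASP1Tg aorta. After adjustment over all probe sets 0 were called. The list was chosen with earlier results of these data known, so that its counts describe these genes and are not a test of a glucocorticoid response. Fkbp5, a chaperone of the glucocorticoid receptor, had 509 to 883 in WT and 1114 to 4181 in KCASP1Tg aorta, with KCASP1Tg 6 the lowest of the latter (log2 fold change 1.73, adjusted p = 0.120 by limma). Lcn2, which neutrophils also make, was at 2.74 (adjusted p = 0.119), the cell cycle inhibitor Cdkn1a at 1.23 (adjusted p = 0.362) and the metallothionein Mt2 at 0.74 (adjusted p = 0.392). The mean log2 signal of the 10 genes ran from 10.15 to 10.42 in WT mice, was 10.49 in KCASP1Tg 6 and ran from 11.29 to 11.84 in the other KCASP1Tg mice. The summed signal of the neutrophil list ran from 686 to 881 in WT and from 6780 to 59040 in KCASP1Tg mice, with 2 of its genes, S100a8 and S100a9, called.

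The 9 heat shock genes had a median of -0.05, with 2 positive. Of them 0 had an unadjusted limma p under 0.05, against 7.94% of all probe sets tested. Those with the smallest p were Hspb1 (0.13), Hspe1 (-0.09), Hsp90aa1 (-0.10) and Bag3 (-0.08), all with an adjusted limma p of 0.865 or more. The last 3 turned to 0.02 or 0.03 without 1 mouse (WT 4 for Hspe1, WT 3 for Hsp90aa1, KCASP1Tg 3 for Bag3). Of the hypoxia genes 10 of 11 were tested, with 4 positive and a median of -0.02. At an unadjusted limma p under 0.05, 2 were higher (Slc2a1 and Bnip3), against 4.52% of all probe sets tested. The glucose transporter Slc2a1 was at 0.50 (adjusted p = 0.485 by limma), the mitophagy receptor Bnip3 at 0.41, Pdk1 at -0.40 (-0.62 without WT 2 and -0.18 without WT 4) and Pfkfb3 at -0.48, with 0 called.

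Over 12287 other genes, those most like the mean of the immediate early genes within genotype over the 10 mice were Tsg101 (r = 0.94), Kctd6 (0.91), Rgs7 (0.88), Psma5 (0.88) and Trim13 (0.87). Each was highest in KCASP1Tg 6, which the choice largely fixes, as that mouse deviates most in the mean of the immediate early genes (0.58, against -0.30 to 0.13 in the others). Tsg101 had a signal of 1650 there, 1375 to 1509 in WT mice and 1295 to 1378 in the other KCASP1Tg mice.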
